A study of Mus musculus with 10 samples.

Results

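Checkpoint ligands and costimulators are surface or secreted proteins by which myeloid cells restrain or license T cells. The 10 genes described here were picked by symbol (Cd274, Pdcd1lg2, Cd80, Cd86, Cd40, Lgals9, Havcr2, Vsir, Pvr and Vsig4), and each matched 1 row of the 55487 in the deposited table. Of the 10, 9 passed the filter on low values (at least 1 TPM in at least 5 libraries), which left 13930 genes to test, and Vsig4 did not. TPM is transcript abundance per gene length, scaled to a fixed total per library.

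The libraries came from MC38 tumours, which grow from a mouse colon carcinoma line. The hosts were mice whose Ptpn22, the gene of the phosphatase Pep, carries alanine in place of a serine (S452A, 5 mice), and mice with the wild-type gene (WT, 5 mice). Both genotypes were injected at 8 weeks of age, and tumours were taken after 18 days, digested with collagenase and sorted for CD8+ T cells. The labels do not name the strain or the injection site, the S452A change is not limited by the labels to a cell type, and each library is labelled as 1 mouse. The question of the series is what phosphorylation of this serine does in such T cells. The design text writes the allele as S425A in 1 place, and S452A is used here.

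The defining markers in the table went against the labelled cell type. The 15 macrophage markers (among them Apoe, Csf1r and C1qa) summed to 19651 to 25326 TPM in S452A libraries and 18802 to 25922 TPM in WT libraries, and 13 of the 15 averaged at least 100 TPM. The 8 T cell markers (CD3 chains, receptor constant regions and CD8 chains) summed to 14.96 to 135 TPM in S452A libraries and 12.1 to 126 TPM in WT libraries. Their list mean ran from 1.28 to 4.02 as log2(TPM + 1) in S452A and from 1.16 to 3.88 in WT. The libraries are therefore described below as bulk RNA of mixed content dominated by macrophage transcripts, in which fewer cells of a type and less RNA per cell cannot be told apart. S452A library 3 held the highest value of 6 of the 10 genes and the highest T cell marker mean, so differences are also given without it.

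PD-L1 (Cd274) and PD-L2 (Pdcd1lg2) bind the inhibitory receptor PD-1 on T cells. CD80 and CD86 bind the costimulatory receptor CD28 and, more tightly, its inhibitory relative CTLA-4. CD40, a receptor of the TNF receptor family, receives the CD40 ligand signal of helper T cells and activates NF-kB in macrophages and dendritic cells. Interferon gamma and NF-kB signals are known inducers of Cd274, and macrophages in tumours are a known source of it.

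Reference promoters (RefSeq, build GRCm38.p6, 250 bases before to 50 after the gene start, read 5′ to 3′ on the gene's strand) were found for 7 of the 10 genes. Shown first are those of Cd274 and Pdcd1lg2, neighbours that differ widely in level, and of Lgals9, the steadiest of the group. Capitals mark the letters GAAANNGAA on either strand, the core of a site for interferon regulatory factors. The windows lie at chr19:29367188-29367487 (plus strand) for Cd274, chr19:29410669-29410968 (plus strand) for Pdcd1lg2 and chr11:78984875-78985174 (minus strand) for Lgals9.
Cd274: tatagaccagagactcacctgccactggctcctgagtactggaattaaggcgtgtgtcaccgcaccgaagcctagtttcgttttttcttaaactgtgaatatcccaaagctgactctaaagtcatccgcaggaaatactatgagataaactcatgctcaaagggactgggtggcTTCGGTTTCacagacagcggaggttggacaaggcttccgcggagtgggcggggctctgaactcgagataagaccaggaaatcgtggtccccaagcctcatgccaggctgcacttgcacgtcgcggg
Pdcd1lg2: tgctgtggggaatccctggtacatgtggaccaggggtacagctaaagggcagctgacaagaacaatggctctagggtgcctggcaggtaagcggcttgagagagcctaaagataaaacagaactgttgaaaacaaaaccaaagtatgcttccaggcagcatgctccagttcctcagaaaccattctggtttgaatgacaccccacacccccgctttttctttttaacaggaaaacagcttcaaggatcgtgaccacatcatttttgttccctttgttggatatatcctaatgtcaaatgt
Lgals9: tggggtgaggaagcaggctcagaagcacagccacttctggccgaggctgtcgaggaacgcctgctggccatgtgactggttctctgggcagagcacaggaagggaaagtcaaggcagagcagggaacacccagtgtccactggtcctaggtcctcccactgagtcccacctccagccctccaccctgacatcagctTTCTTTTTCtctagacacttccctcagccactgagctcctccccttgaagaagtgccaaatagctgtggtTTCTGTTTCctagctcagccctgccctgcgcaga
The Cd274 window held 1 match, starting 76 bases before the gene start, the Lgals9 window held 2, which do not overlap, and the Pdcd1lg2 window held none. Of 32851 promoter windows of this length, 8.56% held these letters. The letters TTCNNNGAA, which STAT factors bind, were in 8.30% of all windows, and GGANTTTCC, an NF-kB element, in 1.25%. Neither was in any of the 7 member windows, which says only that these letters are not within those bases. No match overlapped another.

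The levels of the 10 genes fell into a high group of 7, each above 50 TPM on average, and 3 lower ones. Cd274 was the highest at 172 ± 60.7 TPM (SD over all 10 libraries), followed by Cd40 at 119 ± 35.2 and Lgals9 at 115 ± 10.2 TPM. Cd86 was at 71.4 ± 16.1, Havcr2 at 66.1 ± 12.5, Pvr at 59.1 ± 12.4 and Vsir at 55.4 ± 10.8 TPM. Cd80 was at 17.7 ± 5.62 and Pdcd1lg2 at 1.70 ± 0.82 TPM. Within the high group every neighbouring pair in this order overlapped in range. Cd40 exceeded Lgals9 in only 5 of 10 libraries, Havcr2 exceeded Pvr in 7 and Pvr exceeded Vsir in 7, so these neighbours did not differ beyond their spread. Cd274 exceeded Cd40 in 9 of 10 libraries, Lgals9 exceeded Cd86 in 9 and Cd86 exceeded Havcr2 in 8. Below them, the ranges over all 10 libraries did not overlap between Vsir and Cd80, Cd80 and Pdcd1lg2, or Pdcd1lg2 and Vsig4. Among the tested genes, Cd274 lay between the 91.0 and 96.0 percentile in every library, and Pdcd1lg2 between the 1.76 and 24.8 percentile.

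**Figure D1:**
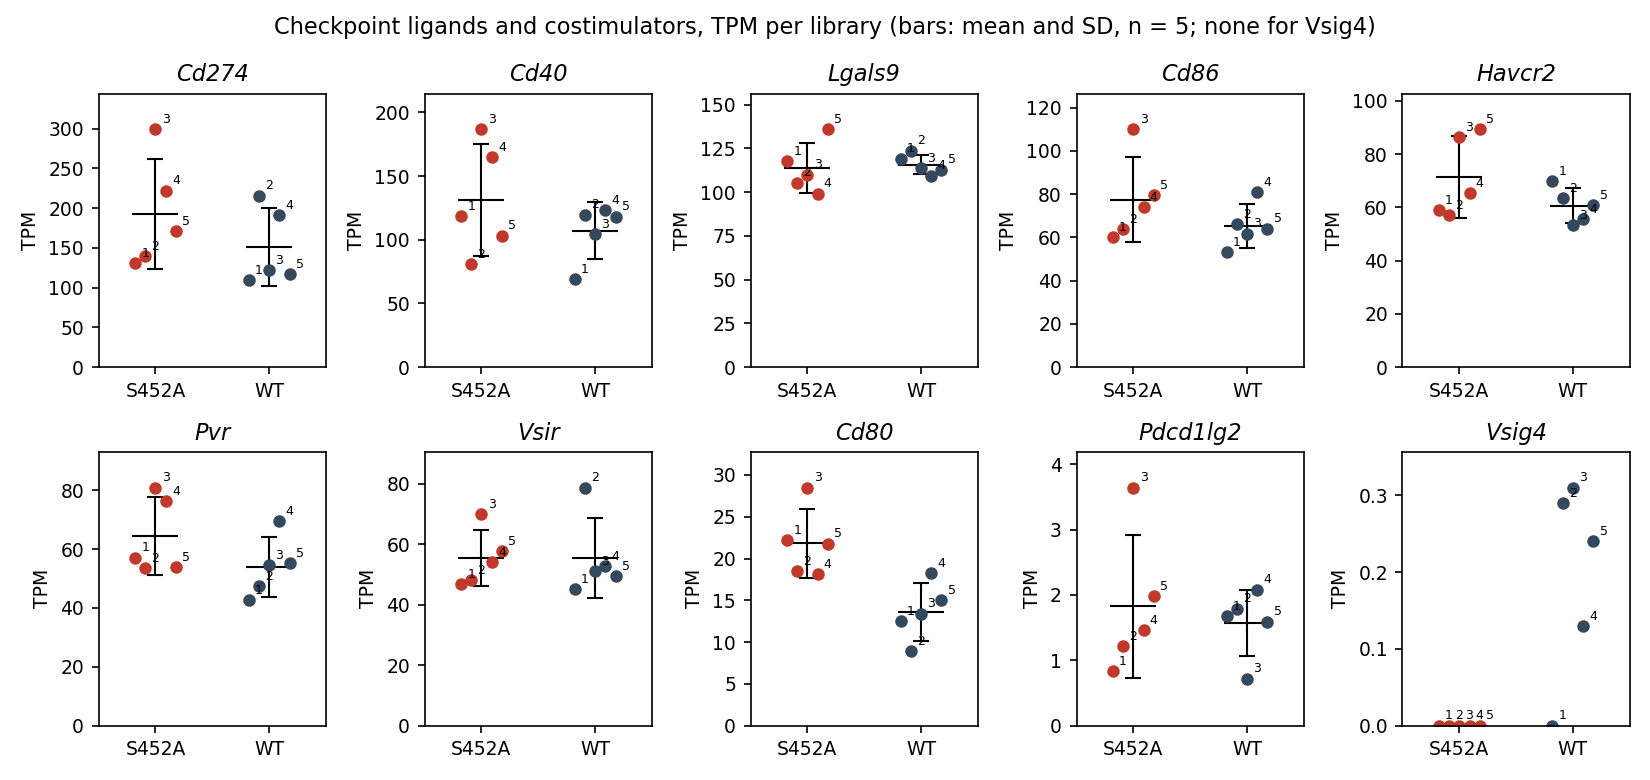
TPM of the 10 genes in each library (y axis, from 0) for the 5 S452A and the 5 WT libraries, numbered as labelled, with the mean and SD as black bars except for Vsig4. S452A library 3 is the highest of the 10 libraries for 6 of the genes, and 4 of 5 S452A libraries lie above every WT library for Cd80.

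Of the PD-1 ligands, Cd274 was abundant and Pdcd1lg2 was near the filter. Cd274 (ENSMUSG00000016496, GRCm38, chromosome 19, 29367455 to 29388095, plus strand) was at 130.35, 139, 299, 222 and 171 TPM in S452A libraries 1 to 5, against 109, 216, 122, 191 and 117 TPM in WT libraries 1 to 5. The highest value was in S452A library 3 and the lowest in WT library 1, and the genotypes overlapped. On the log2(TPM + 1) scale, S452A minus WT came to 0.33 (SE 0.25, 95% interval -0.21 to 0.88; adjusted p = 0.952 by limma), or to 0.16 when S452A library 3 was left out.

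Pdcd1lg2 (29410919 to 29471161, plus strand) lies 22.8 kb beyond the end of Cd274, with 0 protein-coding genes between them. It was at 0.83, 1.22, 3.64, 1.46 and 1.98 TPM in S452A libraries 1 to 5, against 1.68, 1.79, 0.72, 2.08 and 1.59 TPM in WT libraries 1 to 5. The genotypes overlapped, and S452A library 3 was again the highest. Its log2 difference was 0.09 (SE 0.27, 95% interval -0.50 to 0.67, adjusted p = 0.979 by limma), turning to -0.11 without S452A library 3. On the TPM scale, Cd274 stood 82.2 to 157 times above Pdcd1lg2 in S452A libraries and 65.1 to 169.9 times above it in WT libraries. Across the 10 libraries the neighbours had r = 0.71 (Pearson permutation p = 0.0187, adjusted p = 0.10 over 45 pairs) and rho = 0.52 (permutation p = 0.134). Each of these genes overlaps a gene on the opposite strand, AC119228.1 (6.01 to 20.6 TPM) and A930007I19Rik (1.42 to 5.38 TPM). The kit keeps strand, but whether counting used it is not given in the sources used here.

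Of the CD28 ligands, Cd80 had the widest gap between genotypes of the tested members, without passing the adjusted test. Cd80 (ENSMUSG00000075122, chromosome 16, 38455561 to 38496335, plus strand) was at 22.2, 18.5, 28.5, 18.1 and 21.8 TPM in S452A libraries 1 to 5, against 12.5, 8.88, 13.4, 18.2 and 15.01 TPM in WT libraries 1 to 5. Of 5 S452A libraries, 4 lay above every WT library, and S452A library 4 was just under WT library 4. Mean levels were 21.8 ± 4.17 TPM in S452A and 13.6 ± 3.43 TPM in WT (SD, n = 5 each). S452A exceeded WT by 0.66 in log2 (SE 0.19, 95% interval 0.26 to 1.06), with an unadjusted limma p of 0.00388 and an adjusted p of 0.952. A 2-sided exact permutation test of Cd80 alone gave p = 0.0159. With each library left out in turn the log2 difference ran from 0.53 to 0.77, and the adjusted p stayed at 0.72 or above.

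Cd86 (ENSMUSG00000022901, chromosome 16, 36603869 to 36666081, minus strand) was at 60.25, 63.7, 110.05, 74.0 and 79.7 TPM in S452A libraries 1 to 5, against 53.4, 66.2, 61.7, 80.8 and 64.1 TPM in WT libraries 1 to 5. The genotypes overlapped and S452A library 3 stood highest. Cd86 had a log2 difference of 0.22 (SE 0.16, adjusted p = 0.952 by limma), and 0.09 without S452A library 3. The ratio of Cd86 to Cd80 TPM was 2.72, 3.45, 3.86, 4.08 and 3.66 in S452A libraries 1 to 5, against 4.27, 7.46, 4.60, 4.43 and 4.27 in WT libraries 1 to 5. These ratios did not overlap between genotypes, by a narrow margin (at most 4.08 in S452A, at least 4.27 in WT). They rest on the same Cd80 values, which did overlap, and were not tested separately. How many other pairs of genes separate the genotypes in this way was not counted.

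Cd40 (ENSMUSG00000017652, chromosome 2, 165055627 to 165072948, plus strand) was at 119, 80.9, 187, 165 and 103 TPM in S452A libraries 1 to 5, against 69.2, 119.73, 104, 123 and 118 TPM in WT libraries 1 to 5. S452A libraries 3 and 4 lay above all WT libraries and the other S452A libraries lay among them. For Cd40 the log2 difference was 0.25 (SE 0.23, 95% interval -0.24 to 0.75, adjusted p = 0.952 by limma), and 0.11 without either S452A library 3 or WT library 1. Cd40lg, the gene of its ligand, did not exceed 0.11 TPM in any library.

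Havcr2 encodes TIM-3, an inhibitory receptor of exhausted T cells that macrophages and dendritic cells also carry, and Lgals9 encodes galectin-9, a secreted lectin described as one of its ligands. Havcr2 (chromosome 11, 46454935 to 46481255, plus strand) was at 59.0, 57.2, 86.5, 65.5 and 89.4 TPM in S452A libraries 1 to 5, against 69.8, 63.5, 53.2, 55.5 and 60.8 TPM in WT libraries 1 to 5. S452A libraries 3 and 5 stood above all others. Its log2 difference was 0.22 (SE 0.14, limma adjusted p = 0.952), and 0.14 without S452A library 3.

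Lgals9 (chromosome 11, 78962974 to 78984946, minus strand) was at 118, 105, 109.98, 99.2 and 136 TPM in S452A libraries 1 to 5, against 119, 124, 114, 109 and 113 TPM in WT libraries 1 to 5. Its highest library was 1.37 times its lowest, against 2.73 times for Cd274 and 3.21 times for Cd80, and the WT range lay inside the S452A range. Its log2 difference was -0.03 (SE 0.10, 95% interval -0.25 to 0.18, limma adjusted p = 0.979).

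Vsir encodes VISTA, a B7-family inhibitory protein of myeloid and T cells. The gene (chromosome 10, 60346851 to 60372684, plus strand) was at 46.9, 48.2, 69.97, 54.1 and 57.8 TPM in S452A libraries 1 to 5, against 45.2, 78.7, 50.97, 52.7 and 49.4 TPM in WT libraries 1 to 5. WT library 2 was the highest and stood apart from the other WT libraries. Its log2 difference was 0.01 (SE 0.16, adjusted p = 0.998 by limma), and its sign turned under quantile normalization (-0.0030) and when S452A library 3 or 5 or WT library 1, 3 or 5 was left out (lowest -0.073).

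Pvr encodes CD155, which binds the inhibitory receptor TIGIT and the activating receptor CD226. The gene (chromosome 7, 19903578 to 19921160, minus strand) was at 57.1, 53.6, 80.8, 76.4 and 53.9 TPM in S452A libraries 1 to 5, against 42.8, 47.5, 54.5, 69.6 and 55.3 TPM in WT libraries 1 to 5. S452A libraries 3 and 4 lay above all WT libraries. For Pvr the log2 difference was 0.25 (SE 0.16, 95% interval -0.10 to 0.60, adjusted p = 0.952 by limma), and 0.16 without S452A library 3. Genes overlapping Pvr on the other strand, Gm16184 and Gm16251, did not exceed 5.82 and 0.61 TPM, and Cdh23, which overlaps Vsir, did not exceed 4.29 TPM. Epithelial markers such as Epcam and Krt8 were low beside Pvr, the 8 of them summing to 2.52 to 6.53 TPM in S452A libraries and 1.77 to 5.01 TPM in WT libraries. Their level in MC38 cells is not given, and whether tumour cells contribute to Pvr was not tested.

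Vsig4 encodes a complement receptor of tissue-resident macrophages that restrains T cells. The gene (chromosome X, 96247203 to 96293438, minus strand) was listed at 0 in all 5 S452A libraries, against 0, 0.29, 0.31, 0.13 and 0.24 TPM in WT libraries 1 to 5. These values lie far under the filter, the depth behind them is unknown, and no fold or genotype test is given. Vsig4 is kept among the correlations below, where its r rests on these values. Other markers of resident macrophages differed in level. Timd4 and Clec4f did not exceed 0.46 and 0.06 TPM. Cbr2 was at 14.6 ± 10.6 TPM in S452A and 26.3 ± 12.7 TPM in WT, Gas6 at 5.53 ± 2.92 TPM in S452A and 8.71 ± 1.70 TPM in WT, and Folr2 was at 47.0 ± 22.3 TPM in S452A and 50.2 ± 13.9 TPM in WT (SD, n = 5 each). All 5 tested genes of this list of 9 had a log2 difference below 0 (4 without S452A library 3), with a median of -0.67. Of all 13930 tested genes, 7434 lay below 0. The 5 genes were measured in the same libraries, so their signs are not independent of each other. None of the 5 passed the adjusted test, and 1 (Gas6) had an unadjusted limma p under 0.05, against 4.74% of all tested genes.

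Over the 9 tested members, 0 passed the limma test at an adjusted p under 0.05, where 0.00718% of all tested genes did (1 of 13930). At an unadjusted limma p under 0.05 there was 1 member, Cd80 (11.1% of 9), against 4.74% of all tested genes. The log2 difference lay above 0 in 8 of 9 members (7 under quantile normalization, where Vsir turned), against 46.6% of all tested genes. The median difference was 0.22 over the members and -0.02 over all genes. The members were measured in the same 10 libraries, so their signs are not independent of each other. Without S452A library 3, 7 of the 9 differences were nearer 0, 6 were above 0 and the median was 0.11. The 95% interval lay within a 2-fold change either way for 8 of the 9, on the log2(TPM + 1) scale, and Cd80 was the exception. That scale understates changes of low genes such as Pdcd1lg2.

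**Figure D2:**
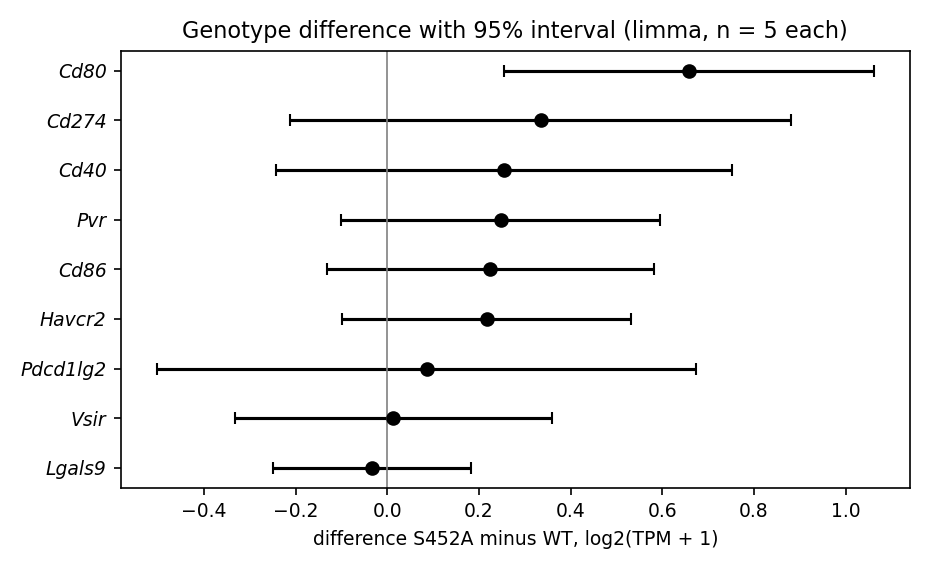
Log2 difference, S452A minus WT on the log2(TPM + 1) scale (x axis), of the 9 tested genes with 95% intervals from limma (n = 5 each). The interval of Cd80, at 0.66, lies above 0 before adjustment over all genes, and the other 8 include 0.

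The genes tended to be high or low in the same libraries. S452A library 3 held the highest value of 6 members (Cd274, Cd40, Cd86, Pvr, Cd80 and Pdcd1lg2), and WT library 1 held the lowest of 5 (Cd274, Cd40, Cd86, Pvr and Vsir). Of the 36 pairs without Vsig4, 30 had a Pearson r above 0 over the 10 libraries, with a median of 0.44. The same share was not computed for pairs of all tested genes, so the count is not shown to be particular to the members. The members share each library's fixed TPM total and its cell content, so these values are not independent of each other.

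Of all 45 pairs, 4 passed a 2-sided permutation test at an adjusted p under 0.05 (Benjamini-Hochberg over the 45), and 13 had an unadjusted p under 0.05. Cd274 and Cd86 had r = 0.86 (permutation p = 0.00129, adjusted p = 0.0439) and rho = 0.82 (permutation p = 0.00599), and r was 0.73 without the 2 libraries farthest from the median of Cd274. Cd40 and Pvr had r = 0.86 (permutation p = 0.00195, adjusted p = 0.0439) and rho = 0.82 (permutation p = 0.00587), with r = 0.67 without the 2 farthest libraries. Cd274 and Vsir had r = 0.80 (permutation p = 0.00421, adjusted p = 0.0476) and rho = 0.82 (permutation p = 0.0062), with r = 0.83 without the 2 farthest. Cd86 and Pvr had r = 0.80 (permutation p = 0.00423, adjusted p = 0.0476) and rho = 0.59 (permutation p = 0.0819), with r = 0.58 without the 2 farthest (permutation p = 0.131). S452A library 3 was among the 2 left out in each of these pairs. With it alone left out, 0 of the 45 pairs passed, with r from 0.68 to 0.79 for these 4.

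Centred within genotype, the 4 pairs had r = 0.84 (Cd274 and Cd86), 0.85 (Cd40 and Pvr), 0.85 (Cd274 and Vsir) and 0.75 (Cd86 and Pvr). By an exact permutation within genotypes, Cd274 and Vsir alone passed, with an adjusted p of 0.0469, and the other 3 had 0.102 to 0.137. For Lgals9, r with the other 8 tested members ran from -0.59 (Pvr) to 0.43 (Havcr2) and was below 0 in 5 of 8, whereas 27 of the 28 other pairs were above 0. No pair with Lgals9 passed.

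**Figure D3:**
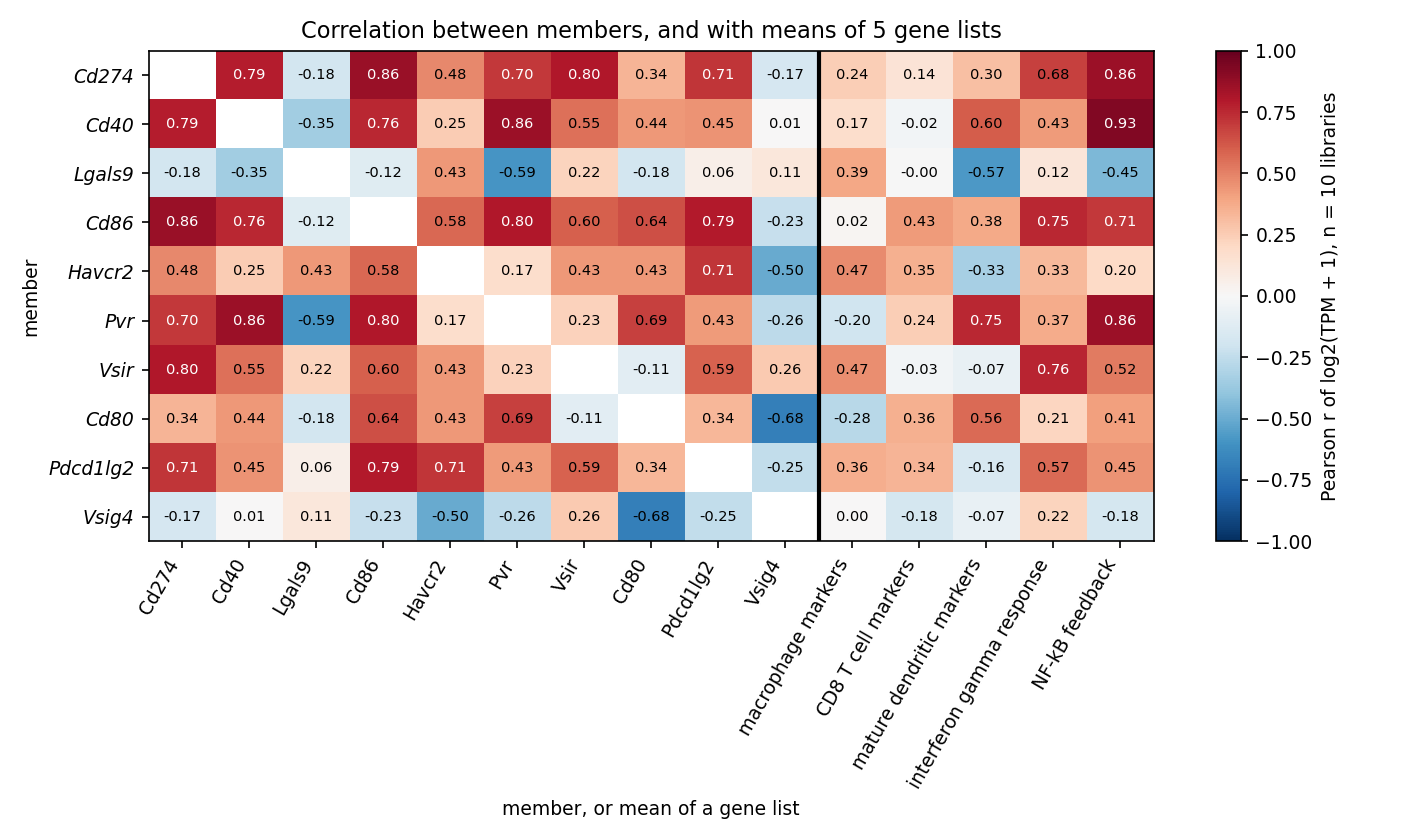
Pearson r of log2(TPM + 1) over the 10 libraries (colour and printed value) between the 10 genes, and, right of the black line, between each gene and the mean of 5 gene lists. Cd274, Cd40, Cd86 and Pvr form a block of positive values up to 0.86, and Cd40 reaches 0.93 with the NF-kB list. The row of Lgals9 holds values of both signs, from -0.59 (Pvr) to 0.43 (Havcr2).

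Each member was also set against the mean of 5 lists that hold no member, 50 relations in all, of which 3 passed at an adjusted p under 0.05 and 8 had an unadjusted p under 0.05. All 3 were with a list of 13 NF-kB feedback genes (such as Nfkbia and Tnfaip3, which NF-kB induces and which restrain it). Cd40 had r = 0.93 (permutation p = 7e-05, adjusted p = 0.0035) and rho = 0.98 (permutation p = 7e-05), r = 0.88 without the 2 farthest libraries, and 0.92 centred within genotype. Leaving out each library in turn gave r from 0.90 to 0.96, with an adjusted p of at most 0.0265. How many of all tested genes correlate as closely with these lists was not counted. These relations are thus not shown to be particular to the members.

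Cd274 and Pvr each had r = 0.86 with the NF-kB list (permutation p = 0.0021 and 0.00148, adjusted p = 0.035 for both), with rho = 0.82 (permutation p = 0.00587) and 0.79 (permutation p = 0.00896). Without the 2 farthest libraries r was 0.72 for Cd274 (permutation p = 0.046) and 0.63 for Pvr (permutation p = 0.0884). Without S452A library 3 alone r was 0.80 for both, with an adjusted p of 0.156. The r of Lgals9 with this list was -0.45 (permutation p = 0.195, adjusted p = 0.573). The NF-kB list averaged 7.36 ± 0.37 in S452A and 7.13 ± 0.26 in WT as log2(TPM + 1) (SD, n = 5 each). Its 13 tested members all had a difference above 0, with a median of 0.19, where 46.6% of all tested genes lay above 0. They were measured in the same 10 libraries, so the 13 signs are not independent of each other. Of the 13, 0 passed or had an unadjusted limma p under 0.05, against 4.74% of all tested genes. Without S452A library 3, 12 of 13 lay above 0, with a median of 0.12.

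**Figure D4:**
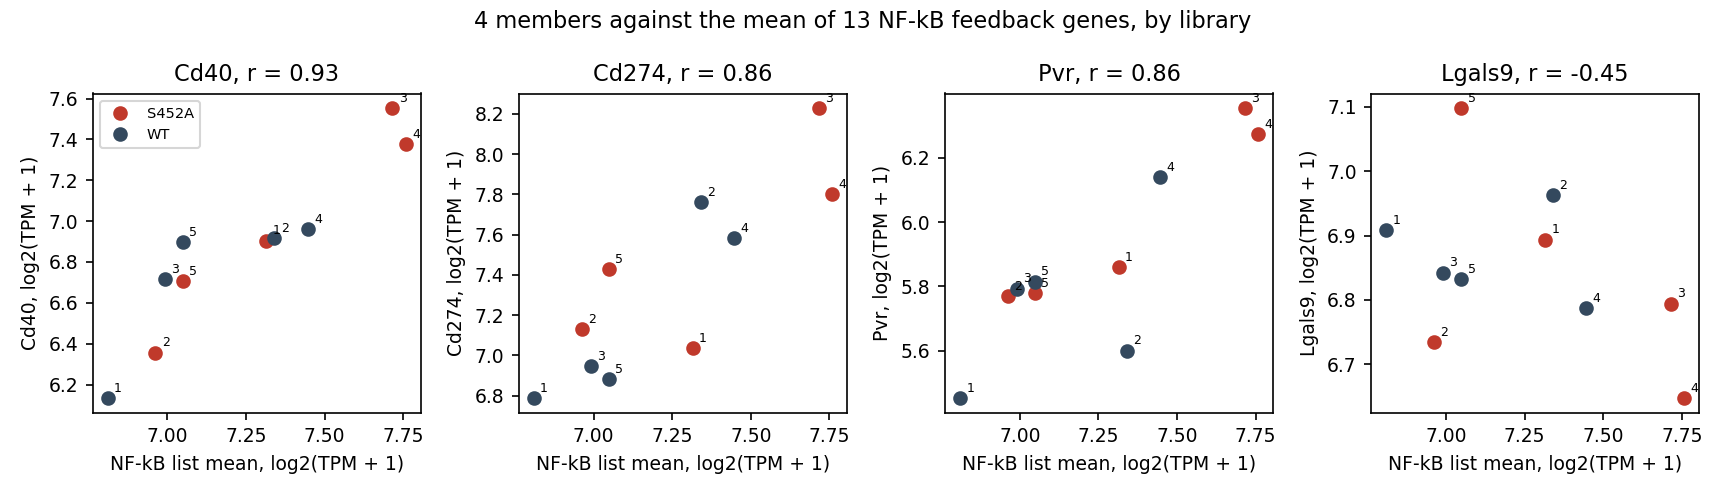
Log2(TPM + 1) of Cd40, Cd274, Pvr and Lgals9 (y axes) against the mean log2(TPM + 1) of 13 NF-kB feedback genes (x axis), 1 point per library, numbered as labelled, S452A in red and WT in dark blue. Cd40 rises along the list mean in both genotypes (r = 0.93), with S452A libraries 3 and 4 at the upper right and WT library 1 at the lower left, and Lgals9 does not.

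No relation with the interferon gamma, mature dendritic cell, macrophage or T cell lists passed. The highest were with the list of 18 interferon gamma response genes, at r = 0.76 for Vsir (permutation p = 0.00834, adjusted p = 0.0951, rho = 0.85 with permutation p = 0.00285) and 0.755 for Cd86 (permutation p = 0.00951, adjusted p = 0.0951, rho = 0.76 with permutation p = 0.0151). Without the 2 farthest libraries, r with this list was 0.67 for Vsir (permutation p = 0.0757) and 0.54 for Cd86 (permutation p = 0.174). Cd274 had r = 0.68 with it (permutation p = 0.0308, adjusted p = 0.193), and 0.78 without the 2 farthest (permutation p = 0.024). Pvr had r = 0.75 with the mature dendritic cell list (permutation p = 0.0142, adjusted p = 0.118, rho = 0.83 with permutation p = 0.00523). Without the 2 farthest libraries that r was 0.79 (permutation p = 0.016). With the macrophage list, r of the 10 members ran from -0.28 to 0.47 (Havcr2), and the smallest Pearson permutation p was 0.168. By rank, Havcr2 had rho = 0.65 with this list (permutation p = 0.0472, adjusted p = 0.249). Its r was 0.76 without the 2 farthest libraries (permutation p = 0.0318). With the T cell list, r ran from -0.18 to 0.43, and the smallest Pearson permutation p was 0.226. That lowest r was of Vsig4, whose values lie far under the filter, and the next lowest was -0.028 (Vsir).

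For each tested member, the genes of most similar pattern over the 10 libraries were taken as the 2 of highest Pearson r among tested genes, without predicted and clone-named genes (Gm8990, at 0.97 with Vsir, was left out so), which the counts below include. These are the extremes of 13930 values over 10 libraries and are descriptions only. Cd274 was most like Fth1, the ferritin heavy chain (r = 0.98), and Rnf149 (0.98), and 110 tested genes exceeded an r of 0.9 with it. Cd40 was most like Mtmr12 (0.97) and Acod1 (0.96), the enzyme that makes itaconate in activated macrophages, with 90 genes above 0.9. Pvr was most like Vps4b (0.98) and Sirt1 (0.96), with 73 genes above 0.9, and Cd86 most like Pnrc1 and Hbp1 (0.95 each), with 38. Fewer genes resembled the others. Lgals9 had 6 above 0.9 (Clec12a first, a myeloid lectin receptor, at 0.94), Vsir 7 (Gramd4, 0.97), Pdcd1lg2 7 (Aldh1b1, 0.95) and Havcr2 2 (Ncapg2, 0.95). Cd80 was most like Ap3s1-ps1, named as a pseudogene, at 0.94, the only gene above 0.9 with it, and then Tpt1 at 0.89.

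None of the other ligands of these families passed the genotype test. Of the 9 other B7 and related genes listed, 7 had a row in the deposited table and 3 were tested, with 1 difference above 0 and 2 below. Icosl, the ligand of the costimulator ICOS, was at 25.7 ± 8.75 TPM in S452A and 27.4 ± 5.80 TPM in WT (SD, n = 5 each), and Cd276 at 6.73 ± 1.25 TPM in S452A and 6.17 ± 1.20 TPM in WT. For the TNF-family costimulatory ligands and CD48, 8 of 9 listed genes had a row and 5 were tested. Of these, 3 were above 0 and 2 below, with a median of 0.10 (2 and 3, with -0.034, without S452A library 3). Tnfsf9, the ligand of the costimulatory receptor encoded by Tnfrsf9, was at 277 ± 73.0 TPM in S452A and 218 ± 51.8 TPM in WT (log2 difference 0.34, limma adjusted p = 0.952), above Cd274 in level.

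Of the 5 nectin-group genes tested, 1 was above 0 and 4 were below (2 and 3 under quantile normalization or without S452A library 3), and Nectin2, a relative of Pvr that binds TIGIT more weakly, was at 4.53 ± 1.23 TPM in S452A and 4.63 ± 1.59 TPM in WT. Of 5 other galectins tested, 1 was above 0 and 4 were below. Lgals3 was at 4324 ± 639 TPM in S452A and 3356 ± 547 TPM in WT (log2 difference 0.37, SE 0.14, unadjusted p = 0.0191, limma adjusted p = 0.952), and Lgals1 at 1673 ± 255 TPM in S452A and 1798 ± 239 TPM in WT. Of 3 genes tested for other binding partners of TIM-3 (Hmgb1, Bag6 and Ceacam1), 1 was above 0 and 2 were below.

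The T cell receptors for these ligands were at low levels. Of 10, 7 were tested, 4 above 0 and 3 below (1 and 6 without S452A library 3, which also had the highest T cell marker mean). Pdcd1, the gene of PD-1, was at 6.14 ± 3.88 TPM in S452A and 6.72 ± 5.04 TPM in WT (SD, n = 5 each), and Ctla4 at 2.01 ± 1.62 TPM in S452A and 2.85 ± 1.51 TPM in WT. Cd28 did not exceed 1.80 TPM in any library.

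Of the 8 CD40 signalling genes, 6 were above 0 and 2 below (5 and 3, with a median of 0.083 against 0.13, without S452A library 3), and Traf1, an adaptor that CD40 and NF-kB induce, was at 318 ± 99.4 TPM in S452A and 249 ± 75.1 TPM in WT. Traf1, Nfkb2 and Relb are also in the NF-kB list. Of 18 interferon gamma response genes, 11 were above 0 and 7 below, with a median difference of 0.07 (9 and 9, with -0.02, without S452A library 3). Gbp5, an interferon-induced GTPase, was at 54.5 ± 15.1 TPM in S452A and 37.0 ± 12.2 TPM in WT (unadjusted p = 0.0436, limma adjusted p = 0.952). Of 10 tested genes of the response to interleukin 4, which induces Pdcd1lg2 in macrophages, 8 were above 0 and 2 below, with a median of 0.14 (0.083 without S452A library 3). Beside the counts of these lists, 46.6% of all tested genes were above 0.

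Markers of other cells that can carry these ligands were read beside the members. The 10 mature dendritic cell genes, all tested, had 6 differences above 0 and 4 below, with a median of 0.21 (5 and 5, with 0.061, without S452A library 3), and summed to 645 to 1422 TPM in S452A libraries and 409 to 900.05 TPM in WT libraries. Much of that sum was Ccl5, which other cells also make, and Ccr7 was at 54.0 ± 13.4 TPM in S452A and 49.9 ± 14.2 TPM in WT. The 9 conventional dendritic cell genes summed to 37.8 to 52.1 TPM in S452A and 33.8 to 48.5 TPM in WT. The 9 fibroblast genes were all below 0, with a median of -0.56 (8 of 9 without S452A library 3). Of all 13930 tested genes, 7434 lay below 0. The 9 fibroblast signs come from the same libraries and are not independent of each other. The fibroblast genes summed to 122 to 242 TPM in S452A and 178 to 368 TPM in WT. An unadjusted limma p under 0.05 was found for 2 of them, against 4.74% of all tested genes. The 7 B cell genes summed to 3.72 to 21.8 TPM in S452A and 5.09 to 13.8 TPM in WT, and Cd79a did not exceed 2.37 TPM. The 8 neutrophil genes summed to 37.6 to 84.1 TPM in S452A and 35.1 to 61.9 TPM in WT. Of 7 natural killer genes the sum was 1.93 to 10.6 TPM in S452A and 1.09 to 6.43 TPM in WT, and of 7 endothelial genes 20.4 to 39.8 TPM in S452A and 20.2 to 34.3 TPM in WT. None of these marker genes passed the genotype test. Their part in the members' levels was not tested beyond the correlations with the macrophage, T cell and mature dendritic cell lists above. With the macrophage marker mean as a covariate, Cd80 was at 0.65 and 0 members were called, as without it. That mean was 8.61 as log2(TPM + 1) in both genotypes, so the covariate could change the genotype differences little and does not settle the part of cell content.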

How the data were processed

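Bulk RNA of the sorted cells went into directional libraries, with 40 ng each, per the labels' protocols. STAR 2.7.9a, RSEM 1.3.0 and the GRCm38.p6 genome are listed in the submitters' processing notes, with neither a gene annotation nor the strand setting of the counting given in the sources used here. The deposited values are the authors' TPM per gene, 1 column per library, and each column sums to 1000000 within rounding. TPM keeps no depth, so counting intervals are not given and precision rests on the spread between mice. From 13677 to 14388 genes reached 1 TPM per library.

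Table columns were tied to samples by their description fields, and genotypes were read from the labels. The 13930 genes that passed the filter (1 TPM in 5 or more of the libraries) were analysed as log2(TPM + 1) with limma 3.58.1 in R 4.3.3 (trend, 2-sided, genotype the only term), with Benjamini-Hochberg adjustment over all of them and a threshold of 0.05. The fit was tested on simulated data. Correlations used 100000 permutations, whose smallest possible p is 1e-05, and the smallest exact p of 5 against 5 is 0.00794. Python 3.11.15 with scipy 1.17.1, numpy 2.4.6, pandas 2.3.3 and matplotlib 3.10.9 was used. With blastn 2.17.0, 0 members had a transcript of another gene at 95% identity or more over 0.8 of the shorter one. Gene positions came from GENCODE M21 (GRCm38), which 55094 rows matched by versioned identifier.

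The members, lists and tests were chosen with earlier results of these data known. All 10 members are named. Of each other list, the genes to name were the 4 of smallest p and the 1 of highest mean TPM, and some of these are left out. Csf1r, Pdcd1, Cd28, Cd40lg, Relb, Timd4, Clec4f, Ccr7 and Cd79a fall outside that rule and were picked after their values were seen. Alternatives were other pseudocounts, filters and scalings, a covariate, a looser threshold, the mouse number as a block and each library left out.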

Additional observations from a re-analysis of the deposited data

Results flagged for a closer look

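In WT libraries, Vsir was at 78.65 TPM in library 2, far above the nearest other value of 52.65 TPM and the lowest of 45.24 TPM. The gap to the nearest value was 0.78 of the group's whole range, above the 95% critical value of 0.71 for 5 samples. Of 19 sets of 5 values examined (10 genes in 2 genotypes, without Vsig4 in S452A), this was the only one set apart in this way, and chance gives about 1 in 20. Without that library the log2 difference of Vsir, S452A minus WT, was 0.14, against 0.01 with all libraries.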

How the results depend on the processing

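Under every alternative run, 0 of the tested members passed the genotype test. Over all genes 1 gene passed, except that 0 did (565 at an unadjusted p under 0.05) when 1 TPM was required in all 10 libraries. The mouse number as a replicate block gave a count of 1 gene and 0 members, and changed no other call. Same-numbered libraries deviated from their group means with r of -0.15 to 0.07 over genes, and 0 of 5 S452A libraries correlated best with its own number. No pairing by number was seen in this, but a check of this kind cannot exclude one. Cd80 had the same sign throughout. With libraries left out in turn, the sign turned for Pdcd1lg2 (-0.11 to 0.22), Lgals9 (-0.099 to 0.013) and Vsir (-0.073 to 0.14). Under quantile normalization Vsir was at -0.0030.

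The counts of correlated pairs depended most on the setting. Of 45 pairs of members, 4 passed, against 0 with Spearman's rho, 1 centred within genotype and 0 under quantile normalization. With libraries left out the count ran from 0 to 7. It was 0 without S452A library 1, 2, 3 or 4 or WT library 3 or 4, 1 without WT library 1, 2 without S452A library 5 and 7 without WT library 2. Of 50 relations with lists, 3 passed, against 1 with Spearman's rho, 1 centred within genotype and 1 under quantile normalization. With libraries left out the count ran from 1 to 3, and it was 1 without any library other than S452A library 1 or WT library 2. The cause of these shifts was not tested. Cd40 with the NF-kB list passed under every alternative run. TPM without counts limits what can be said of Pdcd1lg2 and Vsig4.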
